A study of Rattus norvegicus with 13 samples.

Results

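DMC1 SSDS of SHR-Prdm9 KO/KO testis was compared with DMC1 SSDS of SHR wild-type testis along chromosomes 1 to 20. These are 2 of the 13 samples of the series, with 1 library per genotype. Both came from frozen testis of an adult male of SHR/OlaIpcv, the spontaneously hypertensive rat. According to the study, the KO/KO male was homozygous for a truncating deletion in an exon that encodes the PR/SET domain of Prdm9, and the wild-type male was from the same litter. The table of the authors lists 96640 windows of the rn5 assembly in which a hotspot was called in at least 1 of 5 DMC1 libraries, and the 91120 windows on autosomes were used. The 5520 windows on chromosome X were left out, since X is present in a single copy in males. The other libraries of the table, given only as a scale for the differences, were SHR-Prdm9 KO/wt, wild-type WKY, which carries the SHR allele of Prdm9, and wild-type BN, which carries another allele. All were from adult testes. The table measures breaks and not transcripts, so the loss of Prdm9 could not be checked on the gene itself.

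In meiosis, DNA double-strand breaks (DSBs) are made on purpose, and their repair from the homologous chromosome pairs the homologs and yields crossovers. In many mammals the sites are chosen by PRDM9. Its zinc fingers bind a DNA motif, and its PR/SET domain trimethylates lysine 4 of histone H3 at the nucleosomes nearby. In mice without PRDM9, DSBs form at places that carry this mark for other reasons, many of them promoters, which are called default sites. DMC1 is the recombinase that coats the single-stranded ends of DSBs, and SSDS sequences the DNA pulled down with it, so that a hotspot stands out by the fragments it collects.

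Each window of 3000 bp has a strength in each library, a whole number that may lie below 0. Its definition and scaling are not given in the sources used here, and the number of reads behind it is unknown. Negative strengths were set to 0, which applied to 12.1% of the KO/KO values and 11.9% of the wild-type values, and each library was divided by its sum over the autosomes. That sum was 4020474 for KO/KO and 2772601 for wild-type. All values below are therefore shares of the autosomal strength of a library. A share can be higher in 1 place only where it is lower elsewhere, and the amount of DSBs per cell cannot be read from it. With 1 library per genotype there was no test and no replicate check, and intervals cover counting error only.

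The windows used strongly in KO/KO were nearly all different from those used strongly in wild-type. A strength of 30 or more was found in 31145 windows in KO/KO (34.2% of the autosomal windows) and in 22164 windows in wild-type (24.3%). Both libraries reached it in 911 windows, 1.0% of all. These were 2.93% of the strong windows of KO/KO (Wilson 95% interval 2.74 to 3.12%) and 4.11% of those of wild-type (3.86 to 4.38%). Of the 911, 64.4% overlapped another window of the table, where strengths share signal, against 17.4% of all windows. The strong windows held 91.5% of the KO/KO strength and 85.6% of the wild-type strength. Their median strength as deposited was 78 and 70.

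The difference between the libraries became smaller as the genome was read in larger pieces. The percent of strength shared, which is the sum over pieces of the lower of the 2 shares, was 10.5% in single windows. It was 31.8% in bins of 50 kb, 42.8% in bins of 100 kb and 71.2% in bins of 1 Mb. In bins of 5 Mb it was 82.2%, and over whole chromosomes 92.2%. This percent rises for any 2 maps as pieces are joined. No value for unrelated maps was computed, so the rise alone does not show that the sites lie near each other. Part of the strength lay apart even at 5 Mb.

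With windows below 30 set to 0, the shared percent of KO/KO started at 1.78% in single windows and reached 34.4% at 100 kb, 67.0% at 1 Mb and 79.6% at 5 Mb. The BN library, whose PRDM9 binds other motifs, started at 3.37% and stood at 34.6% at 100 kb. With these windows the values of KO/KO and BN stayed close up to 200 kb, where they were 46.2% and 47.3%. From there BN was further above KO/KO, with 70.9% at 1 Mb, 83.2% at 5 Mb and 96.5% over whole chromosomes, where KO/KO had 91.2%. Over all windows BN was above KO/KO at every size, with 18.6% in single windows, 47.8% at 100 kb and 58.3% at 200 kb, where KO/KO had 10.5%, 42.8% and 53.2%. With windows below 30 set to 0, SHR-Prdm9 KO/wt, with 1 intact copy, shared 77.7% in single windows and 95.1% at 5 Mb, and WKY shared 63.5% and 88.3%. At 5 Mb and over whole chromosomes KO/KO was the least like SHR wild-type of the 4 libraries.

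**Figure D1:**
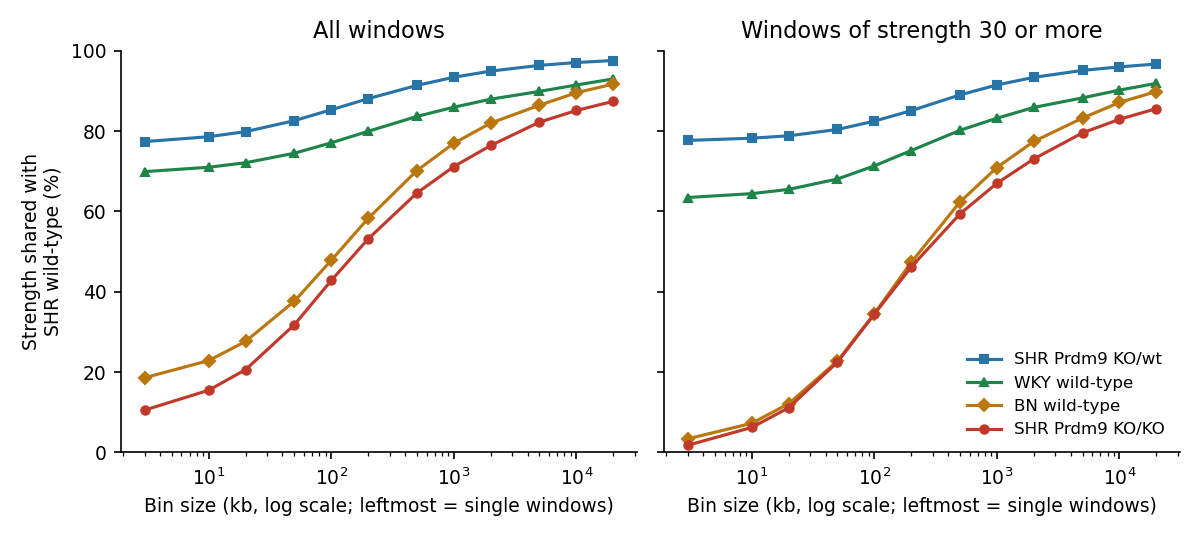
Percent of autosomal strength that each library shared with SHR wild-type (y axis) in bins of rising size (x axis, kb, log scale, with single windows at the left), for all windows (left) and with windows below a strength of 30 set to 0 (right). On the right the KO/KO and BN lines run together up to 200 kb (46.2% and 47.3% there) and then separate, with KO/KO the lowest line at 5 Mb (79.6%).

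The distance between the hotspots of the libraries was also measured. It depends on how densely the other library has strong windows, and no value for unrelated maps was computed. From a KO/KO window of strength 30 or more, the nearest such window of wild-type was at a median of 36.2 kb, and 84.6% lay within 100 kb. From wild-type to KO/KO the median was 30.4 kb. For BN to SHR wild-type it was 33.1 kb, and for KO/wt to SHR wild-type it was 0 kb, since 80.2% of those windows were the same ones. A wild-type window had no KO/KO window within 500 kb in 1.68% of cases, whereas this was so for 0.125% of the KO/KO windows in the other direction. Strong wild-type windows far from any strong KO/KO window were thus more common than the opposite.

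In 5-Mb bins the changes were more often losses in KO/KO than gains. The share was at least 2-fold lower in KO/KO in 85 of 540 bins (15.7%) and at least 2-fold higher in 17 (3.15%). A further bin had no strength to divide. In the 459 bins whose mean share was 0.1% or more, 39 (8.5%) were lower and 12 (2.61%) higher by this measure. No bin was past 2-fold in KO/wt. In WKY 15 bins were lower and 5 higher, and in BN 33 were lower and 6 higher, so that KO/KO had the most in both directions. The SD of the log2 ratio to SHR wild-type was 0.84 in KO/KO, 0.56 in BN, 0.44 in WKY and 0.16 in KO/wt. These ratios share the same wild-type library.

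The bins that were lower in KO/KO held few windows. Their median was 90 windows of any strength, with 18 strong windows in KO/KO and 32 in wild-type. The bins that were higher had a median of 213 windows, with 88 strong in KO/KO and 32 in wild-type. The bins between held 187, with 62 and 45. The bins were sorted by the ratio of KO/KO to wild-type, so the contrast of 18 and 88 in KO/KO follows in part from the sorting. The median number of strong wild-type windows was 32 in lower and in higher bins, below the 45 of the bins between. The windows in the table come from the calls of all libraries, so a bin with many KO/KO hotspots also has many windows.

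Over the 541 bins the shares of KO/KO and wild-type had a Spearman correlation of 0.647. All bins of a library share its total, and neighbouring bins are not independent. For comparison the value was 0.961 for KO/wt with SHR wild-type, 0.799 for WKY with SHR wild-type and 0.669 for BN with SHR wild-type. KO/KO was closer in rank to WKY (0.774) and to BN (0.743) than to the wild-type of its own strain, and WKY and BN had 0.892. Within single chromosomes the correlation of KO/KO with wild-type had a median of 0.701 and went from 0.222 on chromosome 10 to 0.871 on chromosome 13. On the same chromosomes KO/wt stayed between 0.858 and 0.986. Neighbouring bins had similar log2 ratios of KO/KO to wild-type to a weak degree (Spearman 0.296 over 515 pairs).

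**Figure D2:**
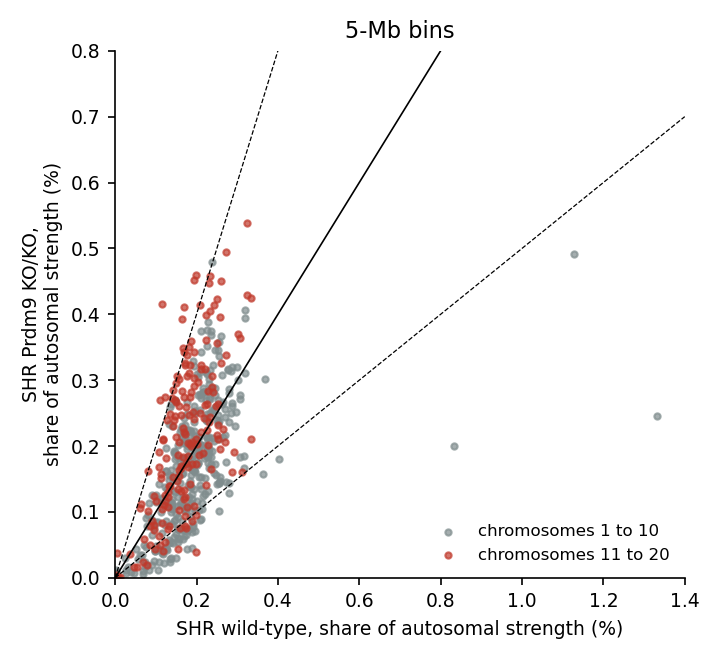
Share of autosomal strength in wild-type (x axis, %) and in KO/KO (y axis, %) in each 5-Mb bin, with chromosomes 1 to 10 in grey and 11 to 20 in red; the solid line marks equal shares and the dashed lines a 2-fold difference. The 3 points far to the right are chromosome 1 from 145 to 150 Mb (0.833% in wild-type) and from 150 to 155 Mb (1.33%) and chromosome 3 from 50 to 55 Mb (1.13%), and all lie below the lower dashed line.

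Among the 459 bins with a mean share of 0.1% or more, that with the lowest ratio was on chromosome 1 from 150 to 155 Mb. It held 1.33% of the wild-type strength and 0.245% of the KO/KO strength, which is 5.44-fold lower. Some bins with a smaller share had lower ratios, down to 0.0774 on chromosome 2 from 125 to 130 Mb. The neighbouring bin on chromosome 1 from 145 to 150 Mb held 0.833% and 0.199% (4.18-fold lower). Over these 10 Mb there were 83 strong windows in KO/KO and 110 in wild-type, or 0.266% and 0.496% of the strong windows of each library. Their median strength was also lower, at 131 against 244.5. The region contained very strong wild-type windows, such as that from 150837642 to 150840642 with a strength of 2511 in wild-type and 21 in KO/KO. The strongest KO/KO window of the bin at 150 Mb lay from 151346132 to 151349132, with 849 in KO/KO and 12 in wild-type, and that of the bin at 145 Mb from 148660021 to 148663021, with 898 and 17. Both are well above the median of strong KO/KO windows, yet far below the wild-type peaks. The share of the whole region was 0.444% in KO/KO, 2.17% in wild-type and 2.13% in KO/wt. In WKY it was 1.18% and in BN 1.30%, between the KO/KO and the SHR wild-type values.

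In the other low bins the wild-type share was ordinary and the KO/KO share was small. On chromosome 19 from 0 to 5 Mb the share was 0.0386% in KO/KO, against 0.198% in wild-type (5.13-fold lower), with 18 and 41 strong windows. The strongest wild-type window of that bin, from 4649417 to 4652417, had 794 in wild-type, 755 in KO/wt and 22 in KO/KO, and the strongest KO/KO window, from 673450 to 676450, had 164. On chromosome 2 from 85 to 90 Mb the shares were 0.0458% and 0.190% (4.14-fold lower), and on chromosome 5 from 55 to 60 Mb 0.0437% and 0.176% (4.02-fold lower). Each of these 2 bins had 11 strong windows in KO/KO and 39 in wild-type. The median strength of the strong windows was 76 in KO/KO against 83 in wild-type on chromosome 2, and 69 and 86 on chromosome 5. On chromosome 19 it was 41.5 and 79, so that there the strong KO/KO windows were both few and weak. WKY and BN were also below SHR wild-type in all 5 of these lowest bins, by log2 -0.44 to -1.57, whereas KO/wt lay between -0.25 and 0.01.

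Among bins with a mean share of 0.1% or more, the 5 with the highest ratios were all on chromosomes 11 to 20. Bins with less strength had higher ratios on long chromosomes too, up to 6.97 on chromosome 1 from 290 to 295 Mb, where the table has 10 windows. Chromosome 20 from 20 to 25 Mb held 0.416% of the KO/KO strength and 0.116% of the wild-type strength (3.59-fold higher), with 172 strong windows in KO/KO and 33 in wild-type. On chromosome 16 from 70 to 75 Mb the shares were 0.410% and 0.169% (2.42-fold higher), with 117 and 43 strong windows. On chromosome 12 from 30 to 35 Mb they were 0.269% and 0.111% (2.42-fold higher), with 95 and 32. In the 3 bins KO/KO had more strong windows, and their median strength as deposited was also above that of wild-type. The sum of strength was larger in KO/KO, so these medians do not show stronger windows relative to each library. The medians were 68.5 and 51 on chromosome 20, 89 and 67 on chromosome 16 and 68 and 60.5 on chromosome 12. Over all autosomes they were 78 and 70. The same held for chromosome 15 from 90 to 95 Mb, with 131 strong windows against 28, medians of 81 and 74.5 and a ratio of 2.40. Chromosome 11 from 65 to 70 Mb, at 2.33, had 113 against 43, with a higher median of 105. All 5 bins were above SHR wild-type in WKY and BN too, by log2 0.11 to 0.81, and in KO/wt by 0.04 to 0.31.

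The strongest windows of these bins were strong in KO/KO or in wild-type, but not in both. On chromosome 20 the strongest KO/KO window, from 24140340 to 24143340, had 466 in KO/KO and 10 in wild-type. The strongest wild-type window there, from 24769690 to 24772690, had 183 in wild-type and -5 in KO/KO. On chromosome 16 the KO/KO window from 70298405 to 70301405 had 1102 in KO/KO, 108 in KO/wt and -2 in wild-type. It was 6.68% of the KO/KO strength of its bin. The wild-type window from 70697245 to 70700245 had 484 in wild-type and 8 in KO/KO. On chromosome 12 the corresponding windows were 30211154 to 30214154 (616 in KO/KO, 6 in wild-type) and 30092882 to 30095882 (186 in wild-type, 7 in KO/KO). In the 3 bins of lowest and the 3 of highest ratio alike, the strongest wild-type window thus had at most 46 in KO/KO.

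By chromosome, the share of strength in KO/KO was lower than in wild-type on most long chromosomes and higher on the short ones. Chromosome 1, the longest, held 8.27% of the strength in KO/KO and 11.8% in wild-type, a ratio of 0.701. Chromosome 5 held 5.34% and 6.23% (0.857), and chromosome 3 held 6.42% and 7.42% (0.865). At the other end, chromosome 20 held 3.14% in KO/KO and 1.94% in wild-type (1.62), chromosome 12 held 2.44% and 1.64% (1.49), and chromosome 19 held 2.91% and 2.24% (1.30). The ratio was above 1 on all 10 of chromosomes 11 to 20 and on 1 of chromosomes 1 to 10, which is chromosome 9 at 1.04. Chromosomes 1 to 10 together held 61.3% in KO/KO and 68.9% in wild-type, and between 68.3% and 69.1% in KO/wt, WKY and BN.

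The ratio followed the length of the chromosome. Across the 20 autosomes the log2 ratio had a Spearman correlation of -0.926 with the length covered by windows, which leaves out stretches of over 2 Mb without a window in any library. The same value was 0.192 for KO/wt, -0.459 for WKY and 0.009 for BN, all with SHR wild-type as the denominator. The SD of the log2 ratio over chromosomes was 0.297 in KO/KO, against 0.029 in KO/wt, 0.094 in WKY and 0.134 in BN. The value of chromosome 1 was partly set by the region from 145 to 155 Mb, as its log2 ratio was -0.51 with the region and -0.30 without it.

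Strength per length was then compared within each library. In the KO/KO library it went from 2.87% of the strength per 100 Mb on chromosome 1 to 5.66% on chromosome 20, with a slope of -0.32 log2 per doubling of length. In wild-type it went from 3.15% on chromosome 12 to 4.49% on chromosome 9, with a slope of 0.09. Its Spearman correlation with covered length was -0.887 in KO/KO, 0.635 in wild-type and 0.591 in KO/wt, so that a rise with length in wild-type also entered the ratio. The slopes in KO/wt (0.10), BN (0.06) and WKY (0.02) were also close to 0 or above it. Strength per length thus fell with chromosome length in KO/KO and in none of the 4 libraries with PRDM9.

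**Figure D3:**
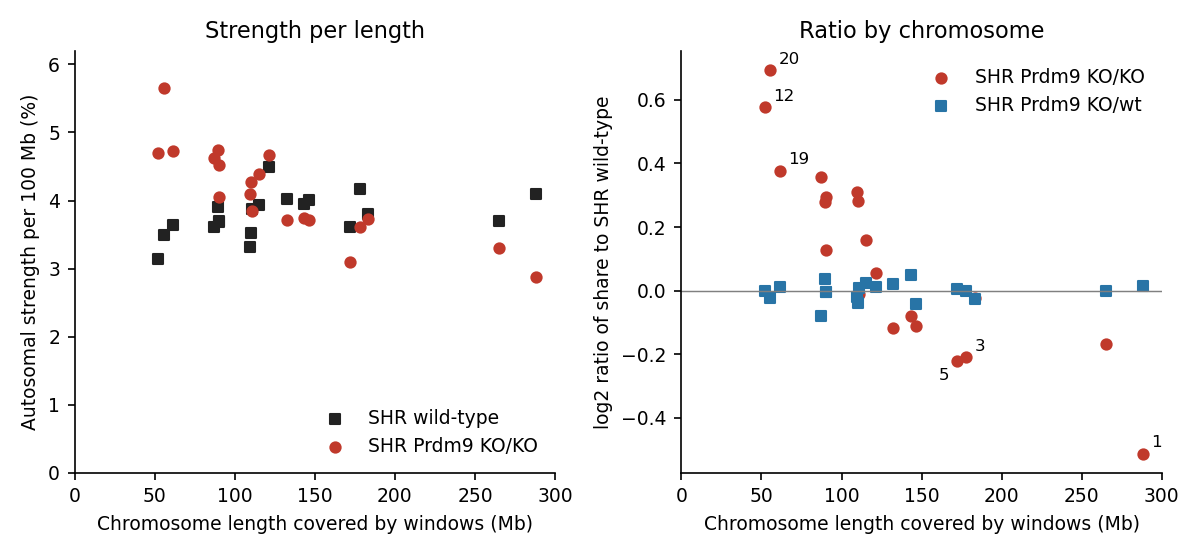
Left, percent of autosomal strength per 100 Mb (y axis) against chromosome length covered by windows (x axis, Mb) for SHR wild-type (black squares) and KO/KO (red circles), 1 point per autosome. Right, log2 ratio of the share in KO/KO (red) or KO/wt (blue) to that in wild-type against the same length, with the 6 chromosomes of extreme KO/KO ratio numbered. KO/KO falls from 0.69 on chromosome 20 to -0.51 on chromosome 1, and KO/wt stays between -0.08 and 0.05.

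In KO/KO the number of strong windows per length followed chromosome length, and their median strength did not. Strong KO/KO windows numbered 9.56 per Mb on chromosome 1 and 19.5 per Mb on chromosome 20, and their density had a Spearman correlation of -0.805 with covered length. Wild-type had between 7.58 and 9.79 per Mb on every autosome, and a correlation of 0.245. Chromosome 20 had 1086 strong windows in KO/KO and 421 in wild-type, chromosome 12 had 930 and 421, and chromosome 1 had 2752 and 2356. As shares of all strong windows of the library these were 3.49% and 1.90% on chromosome 20, 2.99% and 1.90% on chromosome 12 and 8.84% and 10.6% on chromosome 1. The median strength of the strong KO/KO windows was between 65 and 88 on the 20 autosomes, with a correlation of -0.042 with length. In wild-type the median strength was between 60 and 73 and rose with length, with a correlation of 0.648. On chromosome 12 the KO/KO median was 65, the lowest of the 20 autosomes, and on chromosome 20 it was 69, against 78 over all autosomes. Strong windows there were thus many per length, but of lower median strength.

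The distance to the chromosome ends was examined in the same way, with position 0 of rn5 as the start and the last window of the table as the end. In the last 2.5 Mb the KO/KO library held 1.17% of its strength and wild-type 1.88%, a ratio of 0.626. From 2.5 to 5 Mb the ratio was 0.846. Further in it was above 1, at 1.44 from 5 to 10 Mb, 1.48 from 10 to 20 Mb and 1.23 from 20 to 40 Mb, and in the rest of the chromosomes it was 0.893. The last 10 Mb as 1 block had a ratio of 1.09, which joins a depleted outer part and an enriched inner part.

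The inner part was the more regular of both. From 5 to 20 Mb from the end KO/KO held 16.4% and wild-type 11.2%, and the KO/KO share was higher on 20 of 20 autosomes. Divided by the ratio of the whole chromosome, it was higher on 19 of 20, with a median of 1.32. It held on chromosomes 1 to 10 (ratio 1.35) and on 11 to 20 (1.57). WKY (13.7%) and BN (13.2%) also lay above SHR wild-type in this zone, and KO/wt (11.1%) did not. In the last 2.5 Mb the ratios of WKY and BN, at 0.583 and 0.454, were lower than that of KO/KO, and that of KO/wt was 0.872. The pattern of a low outer and a high inner zone was thus also present in WKY and BN, and the KO/KO values were the higher ones from 5 to 40 Mb.

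The last 2.5 Mb held 498 strong windows in KO/KO and 413 in wild-type, where these were 1.86% of all its strong windows. As a share of its library, the KO/KO number was 0.858 times that of wild-type. The strong windows of this zone had a median of 57 in KO/KO, against 75 in wild-type. Strong KO/KO sites did occur at the very end. On chromosome 11 the overlapping windows from 93463431 to 93466431 and from 93462962 to 93465962, 41.4 and 41.9 kb from the last window, had 1024 and 929 in KO/KO and 19 and 18 in wild-type. The strongest wild-type window of this zone, on chromosome 4 from 246164481 to 246167481, had 848 in wild-type and 8 in KO/KO.

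At the start of the chromosomes the high inner zone was weaker than at the end. The low outer zone was similar, with a ratio of 0.740 in the first 5 Mb and 0.754 in the last 5 Mb. It was not particular to KO/KO, as the first 5 Mb had ratios of 0.778 in WKY, 0.734 in BN and 0.916 in KO/wt. The ratio was 0.682 in the first 2.5 Mb, 0.783 from 2.5 to 5 Mb, 1.19 from 5 to 10 Mb, 1.18 from 10 to 20 Mb and 1.13 from 20 to 40 Mb. The first 10 Mb as a whole had 0.958. From 5 to 20 Mb the KO/KO share was higher on 14 of 20 autosomes, but relative to the whole chromosome on 10 of 20, with a median of 1.04. On chromosomes 11 to 20 the ratio was 1.42 from 5 to 10 Mb and 1.39 from 10 to 20 Mb, and on 1 to 10 it was 0.978 and 0.961. Some starts have stretches without windows, such as chromosome 13 with 9.22 Mb after 2937057. Where the centromeres lie was not used here.

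**Figure D4:**
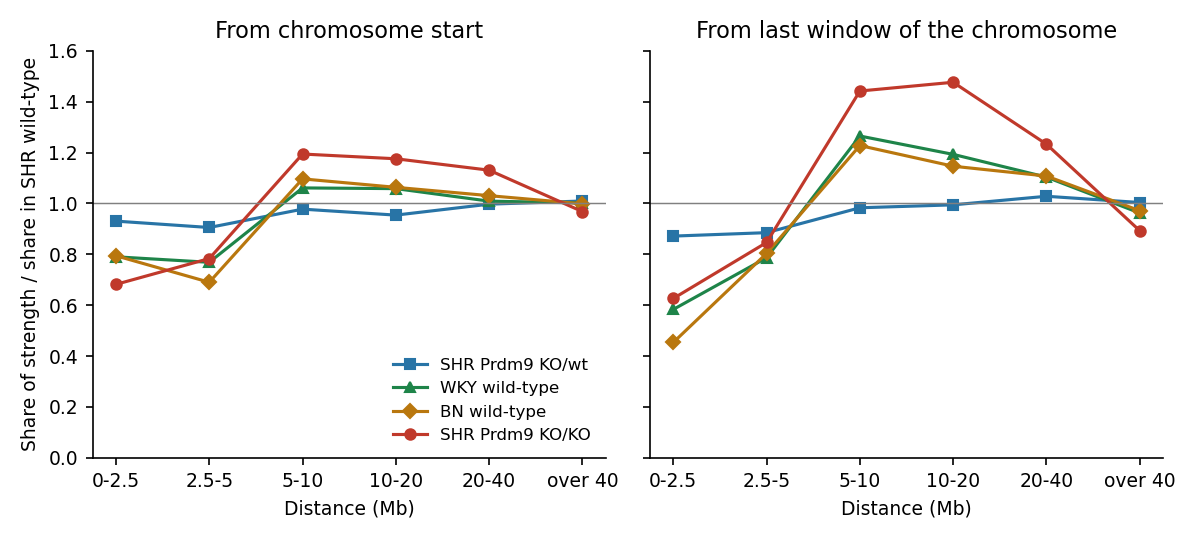
Share of strength in each library divided by that in SHR wild-type (y axis) by distance from the chromosome start (left) and from the last window (right) in 6 zones (x axis, Mb), summed over 20 autosomes. KO/KO (red) lies below 1 in the outer 5 Mb on both sides, as do the other libraries drawn. It peaks at 1.48 from 10 to 20 Mb from the end, where WKY (1.19) and BN (1.15) are also above 1.

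The relation with chromosome length held without the ends. With the first and last 20 Mb of each autosome left out, the log2 ratio of KO/KO to wild-type went from -0.65 on chromosome 1 to 0.87 on chromosome 12, and its Spearman correlation with covered length was -0.932. It was above 0 on 8 of 20 autosomes, against 11 with the ends, and chromosomes 14 and 16 fell just below 0. The part of chromosome 12 that was left held 0.314% of the wild-type strength.

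Strong windows were closer together in KO/KO than in wild-type, and their spacing was more uneven. The median distance between the starts of neighbouring windows of strength 30 or more was 35.1 kb in KO/KO (exact binomial 95% interval 34.4 to 35.8 kb) and 71.7 kb in wild-type (70.1 to 73.3 kb), a ratio of 2.04. In WKY, which had 53013 such windows, the median was shorter still, at 29.5 kb. KO/KO also has more such windows than SHR wild-type. With the same number in both, 22164, which sets the lowest strength in KO/KO at 51, the medians were 47.5 and 71.7 kb (1.51), and in WKY it was 68.5 kb. By chromosome and at a strength of 30 or more, the KO/KO median was the shorter on 20 of 20 and went from 23.7 kb on chromosome 20 to 42.8 kb on chromosome 5. At the same number of windows it was also the shorter on 20 of 20, from 36.7 kb on chromosome 20 to 59.0 kb on chromosome 1. The wild-type medians stayed between 65.3 kb (chromosome 9) and 79.9 kb (chromosome 20), so that chromosome 20 had the closest spacing in KO/KO and the widest in wild-type.

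At equal numbers the mean distance was nearly the same by construction, and the KO/KO distances were more spread to both sides. Spacings under 20 kb were 27.8% (27.2 to 28.4%) in KO/KO, against 19.8% in wild-type (19.3 to 20.4%), and those over 500 kb were 3.91% and 2.39%. The ratio of SD to mean was 2.14 in KO/KO, against 1.33 in wild-type when spacings across the 13 stretches of over 2 Mb without any window (144.0 Mb in total) were left out. KO/wt (1.31), BN (1.51) and WKY (1.55) were between these or below at the same number of windows. With all spacings of strength 30 or more it came to 5.08 in KO/KO against 4.07 in wild-type, values that the empty stretches dominate. Under 3 kb, where windows overlap, the order was the other way, with 4.27% of spacings in KO/KO and 5.78% in wild-type at equal numbers. The excess of short KO/KO distances therefore lay between 3 and 20 kb, at 23.5% against 14.0%.

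**Figure D5:**
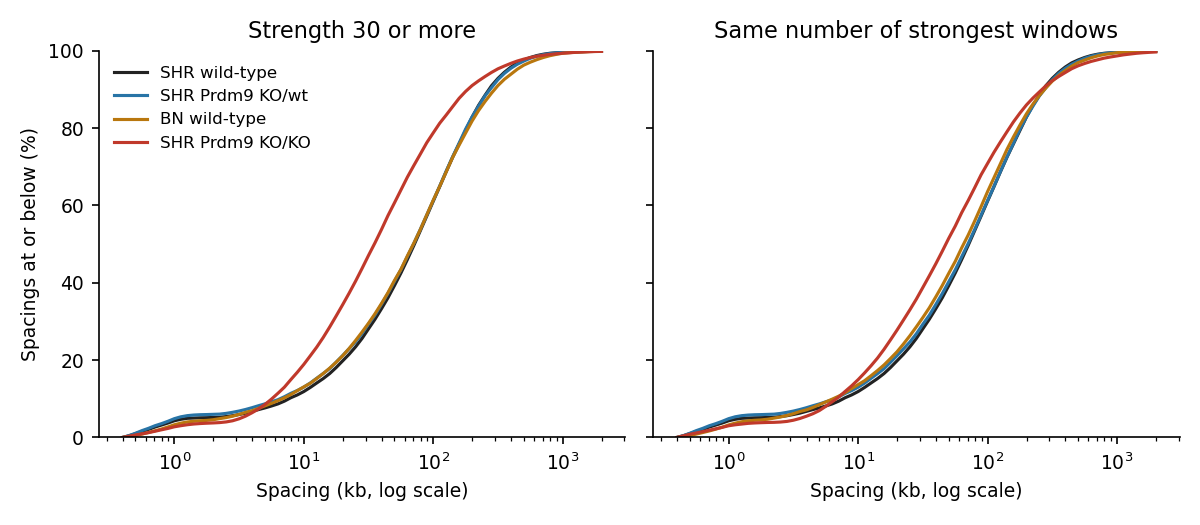
Cumulative percent of spacings (y axis) at or below a given start-to-start distance (x axis, kb, log scale) for windows of strength 30 or more (left) and for the 22164 strongest windows of each library (right). KO/KO (red) is to the left of the lines of SHR wild-type, KO/wt and BN at its median (35.1 kb against 71.7 kb in wild-type, left) and crosses below them at long distances on the right, where 3.91% of its spacings and 2.39% of the wild-type ones are over 500 kb.

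Long stretches without a strong window were longer in KO/KO. The 3 longest of either library spanned stretches where the table has almost no windows, on chromosomes 4, 2 and 19. Among stretches that cross none of these, the longest of KO/KO was on chromosome 13 from 13651096 to 23194238 (9.54 Mb), in which wild-type had 10 strong windows. The next ones were on chromosome 2 from 124882090 to 130100563 (5.22 Mb, with 20 in wild-type) and on chromosome 3 from 21415028 to 26621711 (5.21 Mb, with 7). WKY had 12, 40 and 51 strong windows in these places. In wild-type the longest was also on chromosome 13, from 26248604 to 29823154 (3.57 Mb), followed by chromosome 14 from 93961526 to 96686309 (2.72 Mb) and chromosome 2 from 180782824 to 183499621 (2.72 Mb). KO/KO had 0, 1 and 5 strong windows there.

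KO/KO strength was the more concentrated at intermediate scale, although its single peaks were lower. The 261 strongest of 2610 bins of 1 Mb held 27.1% of the strength in KO/KO and 23.4% in wild-type. The weaker 50% of bins held 18.6% and 27.7%. The top KO/KO bins held 15.0% of the wild-type strength, and the top wild-type bins held 15.4% of the KO/KO strength. KO/KO thus had more 1-Mb regions of low use.

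The strongest windows of each library were far weaker in the other. In KO/KO they were the overlapping windows on chromosome 13 from 49430953 to 49433953 and from 49431503 to 49434503, with strengths of 2048 and 1742 in KO/KO, 20 and 27 in wild-type and 183 and 164 in KO/wt. The first carries the mark of a called hotspot in wild-type and not in KO/KO, and the second the opposite, so the calls of overlapping windows go against their strengths here. The next was on chromosome 3 from 52440317 to 52443317, with 1685 in KO/KO and 12 in wild-type. The 3 strongest wild-type windows, at 7282, 6649 and 3709, had 46, 44 and 27 in KO/KO, where the first 2 count as strong. They were on chromosome 1 from 153211965 to 153214965, on chromosome 3 from 53458839 to 53461839 and on chromosome 1 from 153000819 to 153003819. The bin of chromosome 3 from 50 to 55 Mb, named here after its values were seen, held both the second of these and the KO/KO window of 1685, and it held 0.491% in KO/KO, against 1.13% in wild-type. The highest wild-type window was 0.263% of its library and the highest KO/KO window 0.051%.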

How the data were processed

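Paired reads were mapped by the authors on rn5 with bwa (0.7.12) in a modified form, fragments of single-stranded origin were picked out, and hotspots were called from those of type 1. Per the labels, bedtools 2.23.0 and MACS2 2.1.0.20150420 were also used. The values deposited by the authors are a score, the hotspot strength, for each window and library. How it was computed and normalized, and how windows were merged, is not given in the sources used here. Of the windows, 1 is 2703 bp long and the rest 3000 bp. Depth per library is unknown.

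From this score, shares of autosomal strength were computed. The threshold of 30 and the median strengths used the score without this division. A window was assigned to bins, chromosomes and distances by its midpoint. Spacing was taken between starts of neighbouring windows of strength 30 or more on the same autosome. The interval of a median spacing is the exact binomial one, and intervals of percentages are Wilson 95% intervals. Correlations are descriptions over bins or chromosomes. Regions named were the 3 autosomes with the highest and lowest ratios, the 5 bins of each kind with a mean share of 0.1% or more, the strongest window of each library in the extreme 3, the 3 strongest windows and 3 longest stretches of each library, and chromosomes 12 and 20. The comparison, these rules and the distance zones were chosen with earlier results of these data known. Windows at the very ends were added to these.

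Values were computed in Python 3.11.15 using pandas 2.3.3, numpy 2.4.6 and scipy 1.17.1, and plotted using matplotlib 3.10.9. Of 9 known answers in simulated tables of 4000 windows, 9 were recovered. No genome or gene annotation of rn5 was used here, so no sequence or gene is given. Chromosome X and the H3K4me3 and input libraries were not analysed here.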

Additional observations from a re-analysis of the deposited data

How the results depend on the processing

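No paired analysis was possible because each genotype has 1 library and no value comes from a test. Of 76 alternative values, 16 stayed the same to 3 digits (for percentages of bins, within 1.5 times), 59 moved and 1 reversed its direction. The reversed value was the ratio in the last 10 Mb, 1.09, which was 0.754 within 5 Mb of the end. The narrower zone leaves out the part from 5 to 10 Mb, where the ratio was 1.44. Within 5 Mb of the start the ratio was 0.74.

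The percent shared in 5-Mb bins was 83.4% with strong windows counted once each, 79.6% with only windows of strength 30 or more, 81.5% in windows that overlap no other and 84.2% without the strongest 1% of windows. It was 76.4% in bins of 2 Mb, 85.1% in bins of 10 Mb, 83.0% without the chromosome 1 region and 80.1% with only called windows. In the same order the Spearman correlation was 0.585, 0.570, 0.560, 0.658, 0.582, 0.710, 0.648 and 0.556. It was 0.614 without the first and last 10 Mb and 0.459 in bins with a mean share of 0.1% or more. Bins at least 2-fold higher in KO/KO were 6.57% with only strong windows, 2.04% without the strongest 1%, 8.78% at 2 Mb, 1.44% at 10 Mb and 6.77% with only called windows. Bins at least 2-fold lower were 8.63% at 10 Mb and 8.5% with a mean share of 0.1% or more. Lower bins outnumbered higher ones under each of these settings.

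The SD of the log2 chromosome ratio was 0.288 by number of strong windows, 0.335 with only strong windows, 0.289 in windows that overlap no other, 0.250 without the strongest 1%, 0.247 without chromosomes 12 and 20, 0.277 without the chromosome 1 region and 0.329 with only called windows. The ratio in the last 10 Mb was 1.21 by number, 1.04 without overlaps, 1.12 without the strongest 1% and 1.06 with only called windows. The ratio in the first 10 Mb was 0.986, 0.904, 0.987 and 0.954 in these settings, 0.951 with only strong windows and 0.948 without chromosomes 12 and 20.

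The median spacing in KO/KO and wild-type was 30.5 and 58.2 kb at a strength of 20 or more, 46.7 and 102.5 kb at 50 or more, and 44.4 and 94.4 kb in windows that overlap no other. It was 47.5 kb in KO/KO at the same number of windows. The ratio of SD to mean was 5.41 and 4.49 at 20 or more, 4.55 and 3.46 at 50 or more, 4.63 and 3.65 without overlaps and 4.51 in KO/KO at the same number. Without spacings across empty stretches it was 2.22 and 1.33. The settings with a mean share of 0.1%, without the chromosome 1 region, with only called windows and without empty stretches were chosen after the data were seen. The strength has no known depth behind it, and the spread between animals is unknown.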
